A study of Mus musculus with 16 samples.

Results

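Astrocytes were taken from single-nucleus RNA-Seq of the medial prefrontal cortex as the nuclei with at least 3 UMIs (unique molecular identifiers, the counted mRNA molecules) summed over Plpp3, Gja1, Aqp4, Slc7a10, Atp13a4 and Aldh1l1 and with at least 2 of these 6 genes detected, so that members were chosen by measured counts of these genes. Nuclei with more than 1 UMI of Slc17a7, Gad1 and Gad2 together, the neuronal markers, or with more than 1 UMI of Csf1r, P2ry12, Mag, Mog, Pdgfra and Flt1 together, the markers of other glia and vessels, were left out. The rule took 3504 of 114512 nuclei (3.06%), and they held 2.43% of all UMIs. The markers alone were met by 4656 nuclei, and 1106 of these had more than 1 neuronal UMI while 99 had more than 1 UMI of the other excluded markers. Each mouse gave between 130 and 379 astrocytes with 152478 to 667138 UMIs in sum.

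Astrocytes take up the glutamate that neurons release and return it as glutamine, buffer extracellular potassium and water around vessels and synapses, and supply neurons with lipoproteins and lactate. In Alzheimer's disease models they turn reactive, with more Gfap, Vim and complement, and they respond to interferons by presenting peptides on MHC class I. They also hold part of the brain's capacity to oxidize ethanol and to activate the acetate that ethanol yields.

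The 16 libraries were from male mice of 22 weeks on the B6;129 background, with 4 mice in each of the groups named here WT controls, WT alcohol mice, 3xTg-AD controls and 3xTg-AD alcohol mice. 3xTg-AD mice carry human mutant APP and tau transgenes driven by the neuronal Thy1 promoter, so these transgenes were not directed to astrocytes. The line's other engineered allele is not described here. Alcohol was given as chronic intermittent ethanol vapor after an injection of ethanol with pyrazole, an inhibitor of alcohol dehydrogenase, and all control mice received pyrazole and were placed in chambers with air. All comparisons between groups therefore hold for mice given pyrazole. Per the paper, the cortex was taken days after the last vapor exposure and after a water maze test. The alcohol groups are thus compared after a history of alcohol and not during exposure. The table of 19999 mouse genes has no entry for the human transgenes, and the mouse genes App and Mapt, at 444 and 222 CPM (UMIs of a gene per 1000000 UMIs of the astrocytes), do not check the genotype labels. No label names a batch or litter. Mice 26 and 27 (WT controls) and mouse 12 (3xTg-AD control) stood apart, since the ribosomal RNA-associated transcript Gm42418 took between 27471 and 41190 CPM of the astrocytes, against 2913 to 6893 in the other 13 mice, so the comparisons with controls are given also without these 3 control mice. Different libraries shared 1694 nucleus barcodes, and 96 of these belonged to an astrocyte in 1 library, while none belonged to an astrocyte in both.

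The identity of the nuclei was checked with 25 astrocyte genes that the rule did not use, as a description without a test, since the rule chose the nuclei. All 25 had a higher level in the astrocytes than in the other nuclei, with a median fold of 8.52. Slc1a2, the main glutamate transporter, was at 5982 ± 982 CPM in astrocytes and at 893 ± 139 in other nuclei (SD, n = 16 mice). Slc1a3, a second glutamate transporter, was at 1317 ± 197 and 109.5 ± 20.7. Glul, which makes glutamine, was at 944 against 169.7, and Slc4a4, a bicarbonate cotransporter, at 544 against 72.7. Genes beyond the list led by fold as well. Among them were Myoc at 35.2-fold, the glial fibrillary protein gene Gfap at 21.8-fold, the complement gene C4b at 21.9-fold, the NMDA receptor subunit gene Grin2c at 19.8-fold, the transcription factor gene Pax6 at 19.4-fold, Id3 at 18.5-fold and the phagocytic receptor gene Mertk at 16.7-fold. Apoe, the main brain apolipoprotein, took 7467 CPM of the astrocytes.

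Transcripts of other cells were present. The neuronal gene Rbfox3 was at 127 CPM in astrocytes and 224 in other nuclei and Snap25 at 806 and 1169.9. The microglial gene Cx3cr1 was at 11.1 and 15.2 and the endothelial gene Cldn5 at 6.78 and 10.9. Pdgfrb, listed as a mural marker, went the other way, at 117 CPM in astrocytes and 8.66 in other nuclei. It was found in 15.9% of astrocytes and 1.43% of other nuclei. Fibroblast genes (at least 2 UMIs) were found in 58 astrocytes (1.66%). Among all 11 excitatory neuron markers the direction was mixed, with Camk2a at 1281 and 959.9 CPM and Nrgn at 896 and 849, higher in astrocytes, and the other 9 lower. The rule kept nuclei at 3 marker UMIs (1220 nuclei), and 1693 nuclei stood just outside it with 2 UMIs over 2 genes. Slc1a2 was at 4606 CPM just inside and 3530.2 just outside, Slc1a3 at 1187 and 823, Slc4a4 at 412 and 295, and Rbfox3 at 138 and 170.2.

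**Figure D1:**
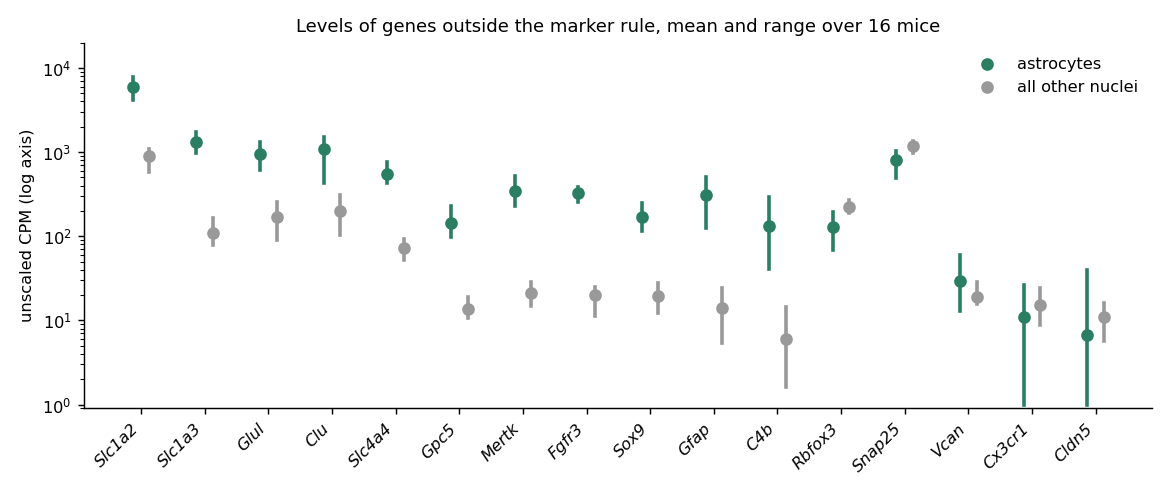
Level of astrocyte identity genes outside the rule and of marker genes of other cells in astrocytes and in all other nuclei, in CPM on a log axis. Points are means over 16 mice and bars span the lowest to the highest mouse, with bars that reach 0 (Cx3cr1, Cldn5) drawn to the axis floor, and all identity genes sit higher in astrocytes, such as Slc1a2 at 5982 against 893.

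The first question was whether the share of astrocytes differed between groups. Astrocytes made 2.18%, 2.62%, 1.95% and 3.26% of the nuclei of WT control mice 26, 27, 28 and 36. They made 3.03%, 2.80%, 2.74% and 2.70% in WT alcohol mice (mice 6, 7, 17 and 18), and 2.46%, 2.68%, 3.26% and 2.50% in 3xTg-AD control mice 12, 13, 14 and 21. In 3xTg-AD alcohol mice, the share was 2.82%, 4.71%, 4.17% and 5.33% in mice 4, 31, 33 and 34. The last 3 of these were above all other mice, while mouse 4 was within the range of the other groups. Values of 4 mice are given in this order of mice throughout.

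The mean share was 4.26% ± 1.07 (SD, n = 4) in 3xTg-AD alcohol mice, 2.50% ± 0.579 in WT controls, 2.82% ± 0.148 in WT alcohol mice and 2.73% ± 0.371 in 3xTg-AD controls. The difference from WT controls was 1.75 percentage points and did not pass the two-sided exact permutation test (p = 0.0571, adjusted p = 0.10 over 7 comparisons, where the smallest p that 4 mice against 4 allow is 0.0286). Over 8 mice against 8, alcohol gave a difference of 0.924 percentage points (exact permutation p = 0.0362, adjusted p = 0.10) and the genotype one of 0.830 (exact permutation p = 0.0729, adjusted p = 0.102). None of the 7 comparisons passed after adjustment. The rule needs UMIs, and depth differs between mice. Nuclei were therefore thinned to 1000 UMIs, with shallower nuclei left out. This kept 5398 of 8905 nuclei in WT alcohol mouse 6 and 4002 of 4955 in 3xTg-AD alcohol mouse 34. With the rule applied again at that depth, the difference of 3xTg-AD alcohol mice from WT controls was 1.51 percentage points. That for alcohol over both genotypes was 0.769. These differences between unthinned shares were also taken without the 3 mice with high Gm42418, a choice made after seeing the data. They were 1.65 (exact permutation p = 0.267) and 0.806 (exact permutation p = 0.146). For the first, only WT controls 28 and 36 were left against the 4 3xTg-AD alcohol mice. With so few mice that test could not pass whatever the shares, so its p does not bear on whether the difference held. A lower share of nuclei and less marker mRNA per astrocyte cannot be told apart here.

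**Figure D2:**
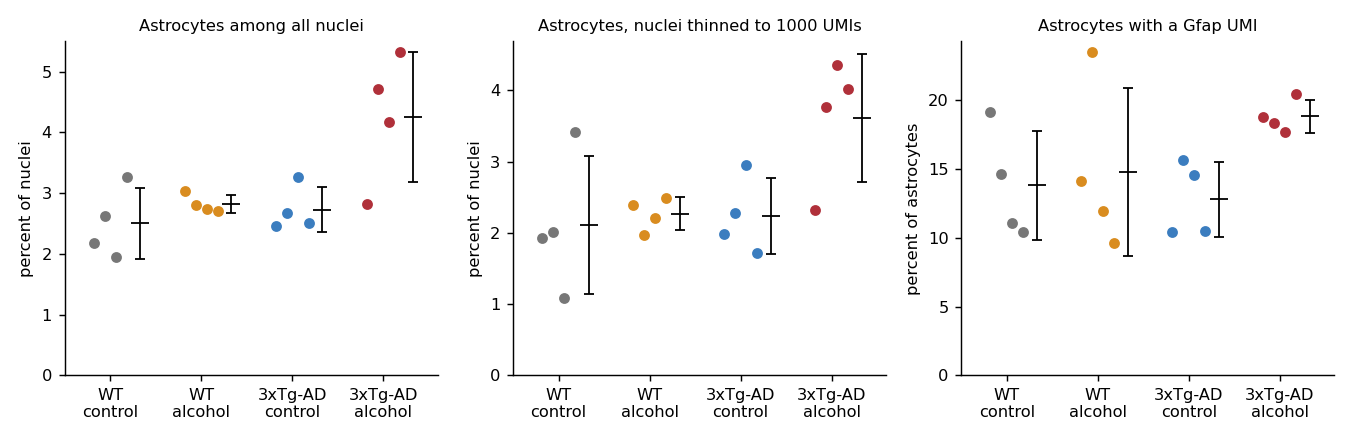
Astrocytes as a percent of all nuclei, the same after thinning to 1000 UMIs with shallower nuclei left out, and the percent of astrocytes with a Gfap UMI, by group. Dots are mice and bars the mean ± SD of 4 mice, and 3 of 4 3xTg-AD alcohol mice (4.17% to 5.33%) lie above all other mice in the first panel.

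The UMIs of the astrocytes were summed per mouse, and 6905 genes were tested with edgeR (quasi-likelihood test, Benjamini-Hochberg adjustment over all 6905 genes, with calls up to an adjusted p of 0.05). Levels from here on are CPM scaled by the TMM factors of edgeR, unless named unscaled, and differences are log2 fold changes ± SE. Against WT controls, 3xTg-AD alcohol mice had 14 genes higher (0.203% of the genes tested) and 16 lower (0.232%), 30 in all (0.434%). The 16 include Atp13a4, a gene of the rule, whose call is no finding, and no other gene of the rule was called between groups. 3xTg-AD controls had 3 genes higher (0.0434%) and 4 lower (0.0579%) against WT controls (0.101% in all), and 4 of the 7 stayed called without the 3 mice with high Gm42418, where 5 genes were higher and 1 lower. WT alcohol mice had no called gene against WT controls by edgeR or by DESeq2, with 505 genes at an unadjusted p under 0.05 in edgeR. Against WT alcohol mice, 3xTg-AD alcohol mice had 12 higher (0.174%) and 7 lower (0.101%), 0.275% in all. Against 3xTg-AD controls they had 1 gene higher (0.0145%) and none lower, and DESeq2 called none. This count rose to 3 higher and 7 lower without the 3 mice with high Gm42418, to 6 higher and 7 lower with a covariate for ribosomal RNA-associated transcripts and to 8 higher and 5 lower without the filter on low counts. These comparisons share control mice and are not independent of each other. Averaged over exposure, 13 genes differed by genotype in each direction (0.188% each, 0.377% in all). Averaged over genotype, 7 were higher (0.101%) and 8 lower (0.116%) with alcohol, 0.217% in all. Rises and falls with genotype or alcohol name differences between groups. Whether genotype differences came from the transgenes or from other differences between the lines was not tested. No gene passed for the interaction of genotype and alcohol by edgeR or DESeq2 (317 genes at an unadjusted p under 0.05 in edgeR, smallest adjusted p 0.341), so no difference between the genotypes in the response to alcohol was shown for any gene.

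The complement gene C4b was the gene called in 3xTg-AD alcohol mice against each of the other 3 groups. C4b encodes complement component C4, which is cleaved upstream of C3. Its level was 115, 47.9, 107 and 122 CPM in WT controls, and 138, 159.6, 157 and 66.2 CPM in WT alcohol mice. In 3xTg-AD controls it was 91.5, 96.5, 86.5 and 136 CPM, and in 3xTg-AD alcohol mice 176, 195, 269 and 340.2 CPM. All 4 of the latter were above all 12 other mice, and the other 3 groups overlapped. The log2 fold change was 1.27 ± 0.24 against WT controls (edgeR adjusted p = 0.00187), 1.25 ± 0.23 against 3xTg-AD controls (edgeR adjusted p = 0.0114) and 0.93 ± 0.22 against WT alcohol mice (edgeR adjusted p = 0.0328). C4b also rose with alcohol over both genotypes, by 0.80 ± 0.18 (edgeR adjusted p = 0.0263). Its interaction, 0.91 ± 0.36, did not pass (edgeR adjusted p = 0.99).

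The call of C4b against WT controls was kept with each mouse left out (1.08 to 1.42, edgeR adjusted p up to 0.0242). It was lost without the 3 mice with high Gm42418, where only WT controls 28 and 36 were left. The loss of these libraries and that of replicates cannot be told apart. Without WT control mice 26 and 27 and 3xTg-AD control mouse 12, the log2 fold change was 1.07 (edgeR adjusted p = 0.118), while that against 3xTg-AD controls was 1.20 (edgeR adjusted p = 0.00724). A covariate for ribosomal RNA-associated transcripts left the difference from WT controls at 1.09 (edgeR adjusted p = 0.224). Those transcripts took 0.34% to 0.48% of all UMIs in 3xTg-AD alcohol mice and 0.56% to 3.33% in WT controls, so covariate and group cannot be told apart. DESeq2 gave 1.25 (adjusted p = 0.140) against 3xTg-AD controls and 0.915 (adjusted p = 0.319) against WT alcohol mice. Under a stricter rule for astrocytes (at least 5 UMIs and 3 genes, 668 nuclei), the value against WT alcohol mice was 0.23 (edgeR adjusted p = 0.967). With a mouse left out it ran from 0.70 to 1.05 and lost its call without WT alcohol mice 6 or 18, 3xTg-AD control 13 or 3xTg-AD alcohol mice 33 or 34. The alcohol call of C4b over both genotypes was lost in 9 of 16 fits with a mouse left out, with values from 0.70 to 0.91. In the astrocytes without a Gfap UMI, a choice made after seeing the data, it was 1.49 against WT controls (edgeR adjusted p = 0.0678), 1.37 against 3xTg-AD controls (edgeR adjusted p = 0.161) and 1.67 against WT alcohol mice (edgeR adjusted p = 0.0124). C4a, a near-identical neighbor, shares reads with C4b, and the assignment between them is uncertain. In the other nuclei of the same mice, C4b was at 1.60 to 6.24 unscaled CPM in WT controls and at 7.53 to 14.6 in 3xTg-AD alcohol mice, with a log2 fold change of 1.85 (edgeR adjusted p = 0.00201). The difference between both changes, -0.55, did not pass the test (edgeR adjusted p = 0.837).

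The share of astrocytes with a C4b UMI was compared as well. C4b was found in 20.8% ± 5.12 of the astrocytes of 3xTg-AD alcohol mice (SD, n = 4), 10.0% ± 2.28 in 3xTg-AD controls, 10.8% ± 3.72 in WT alcohol mice and 7.80% ± 2.27 in WT controls. At a depth thinned to 1000 UMIs, which left out 737 shallower astrocytes, the shares were 15.2%, 7.67%, 9.70% and 7.32%. Other nuclei at that depth held C4b in 0.04% to 1.81% by mouse. The thinned share was 12.4% in the 8 mice exposed to alcohol and 7.50% in the 8 controls (two-sided exact permutation p = 0.0354, adjusted p = 0.342 over 10 tests). None of the 10 tests, of Gfap, C4b, Mt1, Apoe and Id3 by genotype and by alcohol, passed at this depth. At 1500 UMIs the difference in C4b with alcohol was 10.5 percentage points and passed (exact permutation adjusted p = 0.0373), while without the 3 mice with high Gm42418 it was 3.10 at 1000 UMIs (exact permutation p = 0.233).

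Interferon-stimulated genes formed the list with the most calls. The list holds 68 genes, 64 of them in the table and 14 past the filter on low counts, so most of the list, including genes that are near 0 in cortex without infection, was not tested with the filter. Against WT controls, 6 of the 14 rose in 3xTg-AD alcohol mice and none fell (0.203% and 0.232% of all genes tested), with a median log2 fold change of 1.41 against 0.000607 over all genes tested. The filter shapes this count, since 6 of the 14, among them H2-D1, Ifitm2, Ifitm3 and Lgals3bp, passed it only with the 3xTg-AD alcohol mice, where they were high, so the count and the median are a description. Of the 8 that passed without these mice, 2 rose, H2-K1 and B2m, with a median of 1.25 against -0.00866 over the 6610 genes that passed in this way. Without any filter, 19 of the 62 members with a UMI were called higher and none lower, where 42 of 17846 genes were higher (0.235%), and the 6 genes were all called (edgeR adjusted p up to 0.00943). These calls are a description and no separate support, as the fit is of the same mice and gives lower p at like fold changes. For H2-K1 the unadjusted edgeR p went from 5.30e-07 to 1.15e-12, with values of 1.98 and 2.02. Against WT alcohol mice 3 rose (0.174% of all genes), B2m, Ifitm3 and Ifi27, with a list median of 1.045. This count and median are a description too, since the same 14 genes were used and Ifitm3 passed only with the 3xTg-AD alcohol mice. Over both exposures 3 of the 14 were higher in 3xTg-AD mice (0.188% of all genes), with a median of 1.01, again as a description. Of the 5 that passed the filter on WT mice alone, 2 rose, H2-K1 and B2m, with a median of 0.98. For alcohol over both genotypes none passed, and all 14 had values above 0 with a median of 0.545 (at an unadjusted p under 0.05, 665 of all 6905 genes).

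The MHC class I heavy chain gene H2-K1, whose product presents peptides to T cells, was at 19.2, 35.9, 13.3 and 52.7 CPM in WT controls and at 76.4, 110.1, 129 and 217 CPM in 3xTg-AD alcohol mice. WT alcohol mice had 64.6, 77.4, 52.4 and 81.2 CPM and 3xTg-AD controls 45.8, 109, 73.2 and 132 CPM. The first pair of groups did not overlap, and both other groups overlapped both of them. H2-K1 rose by 1.98 ± 0.34 against WT controls (edgeR adjusted p = 6.44e-04) and by 1.20 ± 0.23 with the genotype (edgeR adjusted p = 0.00284).

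H2-D1, a second class I heavy chain, was at 9.61, 5.99, 13.3 and 23 CPM in WT controls and at 76.4, 33.4, 65.5 and 121 CPM in 3xTg-AD alcohol mice, without overlap. It rose by 2.29 ± 0.44 (edgeR adjusted p = 0.0021) and by 1.31 ± 0.31 with the genotype (edgeR adjusted p = 0.0265). H2-D1 passed the filter on low counts only with the 3xTg-AD alcohol mice, where it was high, a limit on both tests. H2-K1 and H2-D1 are close in sequence and their reads may be split between them. B2m, the light chain common to class I molecules, was at 33.6, 41.9, 33.4 and 36.2 CPM in WT controls and at 84.9, 59.0, 119 and 119 CPM in 3xTg-AD alcohol mice. In 3xTg-AD controls B2m spread from 22.9 to 88.1 CPM and overlapped both. B2m rose by 1.39 ± 0.30 against WT controls (edgeR adjusted p = 0.00761) and by 1.25 ± 0.27 against WT alcohol mice (edgeR adjusted p = 0.0106), and by 0.98 ± 0.22 with the genotype (edgeR adjusted p = 0.0112).

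Ifitm3, a membrane protein that blocks virus entry, was at 14.4, 5.99, 6.67 and 0 CPM in WT controls and 5.87, 24.2, 6.17 and 3.01 CPM in WT alcohol mice. In 3xTg-AD controls it was at 5.72, 0, 9.98 and 37.2 CPM, and in 3xTg-AD alcohol mice at 56.6, 21.6, 70.5 and 74.7 CPM. Mouse 31 of the last group lay within the range of the other groups, apart from WT controls. Ifitm3 rose by 3.11 ± 0.64 against WT controls (edgeR adjusted p = 0.00825) and by 2.67 ± 0.53 against WT alcohol mice (edgeR adjusted p = 0.0102). Its neighbor Ifitm2 was at 9.61, 0, 20 and 6.58 CPM in WT controls and 48.1, 27.5, 35.2 and 43.8 CPM in 3xTg-AD alcohol mice, a rise of 2.10 ± 0.53 (edgeR adjusted p = 0.0404). Both genes are similar in sequence and reads may be shared. Lgals3bp, a secreted galectin-binding protein, was at 19.2, 12, 13.3 and 0 CPM in WT controls and 25.5, 45.2, 67.1 and 131 CPM in 3xTg-AD alcohol mice, a rise of 2.73 ± 0.56 (edgeR adjusted p = 0.0105). Ifitm3, Ifitm2 and Lgals3bp passed the filter on low counts only with the 3xTg-AD alcohol mice, where they were high, a limit on their tests. Ifi27, a mitochondrial interferon-induced protein, was at 49.9, 58.0, 74.0 and 60.2 CPM in WT alcohol mice and 99.1, 163, 164 and 356 CPM in 3xTg-AD alcohol mice, a rise of 1.67 ± 0.35 (edgeR adjusted p = 0.044). This call of Ifi27 was lost in 12 of 16 fits with a mouse left out (1.25 to 1.87, edgeR adjusted p up to 0.306) and in 7 of 9 alternatives. Rnf213, a ubiquitin ligase that is not in the list, rose by 1.73 ± 0.42 in the same comparison (edgeR adjusted p = 0.0333), and its call was lost in 6 of the 16 fits.

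**Figure D3:**
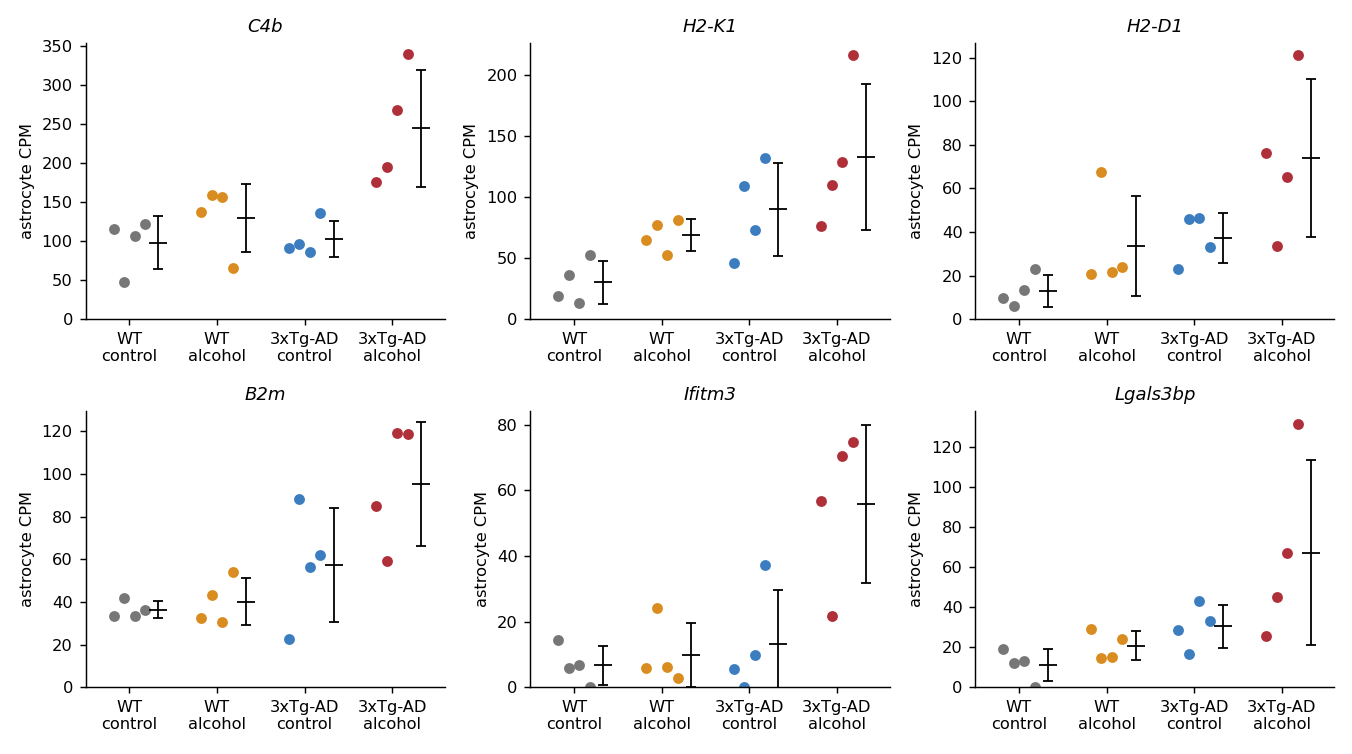
TMM-scaled CPM in astrocytes of C4b and of interferon-stimulated genes by group. Dots are mice and bars the mean ± SD of 4 mice, cut at 0, and for C4b all 4 3xTg-AD alcohol mice (176 to 340.2 CPM) lie above the other 12 mice.

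The rises were set beside the libraries and markers that moved with them. Without the 3 mice with high Gm42418, none of the 6 interferon-stimulated genes passed against WT controls, with values of 1.42 to 4.42 and edgeR adjusted p from 0.0508 (H2-K1) to 0.297. With the ribosomal RNA covariate none passed either (1.19 to 3.77, smallest edgeR adjusted p 0.11), and DESeq2 kept 3 of the 5 it gave a p for. Only WT controls 28 and 36 were left in the fit without the 3 mice. The covariate did not overlap between 3xTg-AD alcohol mice and WT controls. Leaving out 1 mouse ended the call of Ifitm3 against WT controls without WT control 27 or 36, where values over all mice left out ran from 2.49 to 3.93, and that of B2m without 3xTg-AD alcohol mouse 33 (1.23 to 1.57). The call of Lgals3bp was lost without WT control 27, 28 or 36 (2.10 to 3.28), and that of Ifitm2 in 7 of 16 fits (1.78 to 2.61), without WT control 26, 27 or 36, 3xTg-AD control 21 or 3xTg-AD alcohol mice 4, 33 or 34. Against WT alcohol mice, Ifitm3 lost its call in 4 fits and B2m in 3. For the genotype, H2-D1 lost its call in 9 of 16 fits (1.15 to 1.60) and B2m in 1, while H2-K1 kept its calls in all 16. Of the 3 calls against WT alcohol mice, DESeq2 kept 1, the fit without the 3 mice with high Gm42418 kept 1 and the covariate kept 2. Of the 3 genotype calls in the list, DESeq2 kept 1, the fit without the 3 mice kept 2 and the covariate kept 1. The 10 microglia markers in the table summed to 92.5 to 170.8 unscaled CPM in the astrocytes of WT controls, 164 to 219 in WT alcohol mice, 134 to 262 in 3xTg-AD controls and 189.7 to 271 in 3xTg-AD alcohol mice. Between 0 and 3 of the 10 were at 0 in a mouse. The 4 that passed the filter had a median log2 fold change of 1.14 in 3xTg-AD alcohol mice against WT controls, and none was called. Of 11 endothelial markers none passed the filter, and they summed to 5.14 to 43.7 unscaled CPM in WT controls and 16.4 to 108 in 3xTg-AD alcohol mice. The part of microglial or endothelial mRNA in the interferon genes was not tested. In the other nuclei, H2-K1 rose by 1.645 (edgeR adjusted p = 0.0014), Ifitm3 by 2.03 (edgeR adjusted p = 0.00139) and B2m by 0.93 (edgeR adjusted p = 0.013), while H2-D1 had a value of 0.73 (edgeR adjusted p = 0.122). The test of the difference from astrocytes called none of these 4 genes. In WT controls, Ifitm2 was at 2.23 to 16.2 unscaled CPM in the other nuclei. It was at 26.3 to 27.3 in those of 3xTg-AD alcohol mice. WT alcohol mice spread from 4.54 to 36.7 there and 3xTg-AD controls from 16.7 to 33.5, so both reached above the 3xTg-AD alcohol mice.

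The promoters of 3 of the genes that rose are shown because they hold the core letters of the interferon-stimulated response element, the site that interferon signaling uses. The search was for GAAANNGAAA on both strands, in 300-base windows around gene starts (RefSeq, GRCm38.p6). Capitals mark the match, and each sequence is written along the gene's own strand. B2m lies at chr2:122147437-122147736 on the plus strand, and Ifitm2 at chr7:140955912-140956211 and Ifitm3 at chr7:141010695-141010994 on the minus strand.
B2m: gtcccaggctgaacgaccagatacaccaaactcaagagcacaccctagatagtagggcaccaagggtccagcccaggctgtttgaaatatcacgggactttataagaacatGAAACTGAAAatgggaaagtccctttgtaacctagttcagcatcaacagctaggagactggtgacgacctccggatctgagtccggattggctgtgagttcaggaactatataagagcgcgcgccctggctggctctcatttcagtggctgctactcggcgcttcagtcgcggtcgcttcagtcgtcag
Ifitm2: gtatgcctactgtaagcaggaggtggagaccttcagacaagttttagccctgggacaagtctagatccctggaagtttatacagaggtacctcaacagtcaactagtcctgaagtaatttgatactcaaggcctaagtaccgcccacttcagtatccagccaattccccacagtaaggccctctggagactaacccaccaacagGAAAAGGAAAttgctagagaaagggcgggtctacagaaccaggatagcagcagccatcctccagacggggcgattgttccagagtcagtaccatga
Ifitm3: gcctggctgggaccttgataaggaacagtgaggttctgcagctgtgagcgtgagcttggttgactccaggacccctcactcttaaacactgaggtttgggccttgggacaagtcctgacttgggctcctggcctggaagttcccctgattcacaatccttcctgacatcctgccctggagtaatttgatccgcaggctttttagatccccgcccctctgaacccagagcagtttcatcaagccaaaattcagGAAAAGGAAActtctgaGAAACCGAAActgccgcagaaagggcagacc
Ifitm3 held 2 matches and the others 1 each. The letters were found in 1131 of 32851 promoters (3.44%). Counted by gene, with a match in any of its promoters, they were found in 1079 of 27025 genes (3.99%) and in 184 of 5475 genes tested in astrocytes (3.36%). Of the 14 interferon-stimulated genes tested, 12 had a promoter in the table and 5 held a match, B2m, Ifitm2, Ifitm3, Shisa5 and Stat2. Of the 60 genes called in any comparison, Atp13a4 of the rule included, 40 had a promoter and 5 held a match. A match describes the sequence and is not a bound site.

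Outside the interferon list, genes differed by genotype whose values did not overlap between WT and 3xTg-AD mice. Gpm6b, a membrane glycoprotein, was at 1336, 1336, 1248 and 1093 CPM in WT controls and 1333, 1678, 900.2 and 1083 CPM in WT alcohol mice. It was at 2105, 2589, 2504 and 2343 CPM in 3xTg-AD controls and 2718, 3053, 3093 and 2474 CPM in 3xTg-AD alcohol mice. All 8 3xTg-AD mice were above all 8 WT mice, and the log2 fold change was 1.06 ± 0.12 (edgeR adjusted p = 8.75e-10). Tmsb4x, which encodes the actin monomer-binding thymosin beta 4, ranged from 836 to 2258 CPM in WT mice and from 2619.8 to 4249 CPM in 3xTg-AD mice and rose by 1.04 ± 0.13 (edgeR adjusted p = 5.49e-08). In the list of thymosin and actin cytoskeleton genes it was the 1 called for the genotype of 16 tested (0.377% of all genes).

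Intervals were drawn around called genes that lay near each other, from the outermost called gene to the other, so their counts of calls are a description (47 genes with a position, 0.681% of all genes, were called in at least 1 of the 4 comparisons of 3xTg-AD with WT mice used here). Gpm6b, Trappc2, Tmsb4x and Frmpd4 lay within chrX:166238911-168577231 (mm10), an interval of 2338321 bases in which 5 genes were tested. All 5 had values above 0 for the genotype, with a median log2 fold change of 1.045. Trappc2, a subunit of a vesicle tethering complex, rose by 1.40 ± 0.23 with the genotype (edgeR adjusted p = 5.05e-05), and Frmpd4 by 1.38 ± 0.34 in 3xTg-AD alcohol mice against WT controls (edgeR adjusted p = 0.0366), a call lost in 6 of 16 fits with a mouse left out and in 6 of 9 alternatives. A second interval, chr9:106152857-106452923 of 300067 bases, held 3 called genes of 8 tested, with a median of -0.0744. There, Glyctk, which encodes glycerate kinase, was at 141 to 247 CPM in WT mice and at 48.1 to 153 CPM in 3xTg-AD mice and fell by 1.03 ± 0.15 (edgeR adjusted p = 3.72e-06). Alas1, the first enzyme of heme synthesis, fell by 1.12 ± 0.24 (edgeR adjusted p = 0.00459), and Abhd14b rose by 0.82 ± 0.17 (edgeR adjusted p = 0.00261). H2-K1, C4b and H2-D1 all lay within chr17:33996017-35267499, where 22 genes were tested and 16 had values above 0, with a median of 0.068. Ifitm2 and Ifitm3 lay within chr7:140954837-141010770, where both were the only genes tested. Lgals3bp and Rnf213 lay within chr11:118392751-119487418, where 5 genes were tested and 3 had values above 0, with a median of 0.13.

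The chemokine gene Ccl27a was at 60 to 148 CPM in the 8 WT mice and at 16.5 to 39.6 CPM in the 8 3xTg-AD mice and fell by 2.18 ± 0.22 (edgeR adjusted p = 7.51e-12). The RNA-binding protein gene Rbmxl1 was at 46.2 to 79.3 CPM in WT mice and at 6.71 to 14.2 CPM in 3xTg-AD mice and fell by 2.53 ± 0.28 (edgeR adjusted p = 3.73e-10). Neither overlapped between the genotypes. Rnf121, a ubiquitin ligase of the secretory pathway, was at 827, 970.5, 1001 and 2448 CPM in WT controls and at 995, 1741, 6.17 and 2016 CPM in WT alcohol mice. In 3xTg-AD mice it was at 12.4 to 62.9 CPM. WT mouse 17 thus had the level of the 3xTg-AD mice for Rnf121, in the other nuclei too (21.7 unscaled CPM, against 204 to 1165 in the other WT mice), while its Ccl27a (148 CPM) was the highest and its Rbmxl1 (46.2 CPM) the lowest of the 8 WT mice, both above all 3xTg-AD mice. Rnf121 fell by 5.36 ± 0.75 (edgeR adjusted p = 0.00433). Of the 26 genotype calls, 19 held without the 3 mice with high Gm42418, 21 with the ribosomal RNA covariate and 17 in DESeq2.

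Other genes that differed by genotype followed. Ddo, which encodes the oxidase of D-aspartate, was at 53.4 to 89.9 CPM in WT mice, at 11.4, 12.6, 9.98 and 41.3 CPM in 3xTg-AD controls and at 31.1, 39.3, 36.9 and 97.9 CPM in 3xTg-AD alcohol mice. Mouse 34 of the last group was above all WT mice and the other 7 3xTg-AD mice were below them. Ddo fell by 1.25 ± 0.25 (edgeR adjusted p = 0.00259). Hmgn3, a nucleosome-binding protein, was at 155 to 300.2 CPM in WT mice and at 366 to 480.0 CPM in 3xTg-AD mice and rose by 0.78 ± 0.13 (edgeR adjusted p = 3.73e-05). Sfrp1, a secreted Wnt antagonist, rose by 1.25 ± 0.23 (edgeR adjusted p = 0.00148) and Slc44a2, a choline transporter, by 1.56 ± 0.35 (edgeR adjusted p = 0.0109), a call lost without WT control 26 or 3xTg-AD control 21.

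**Figure D4:**
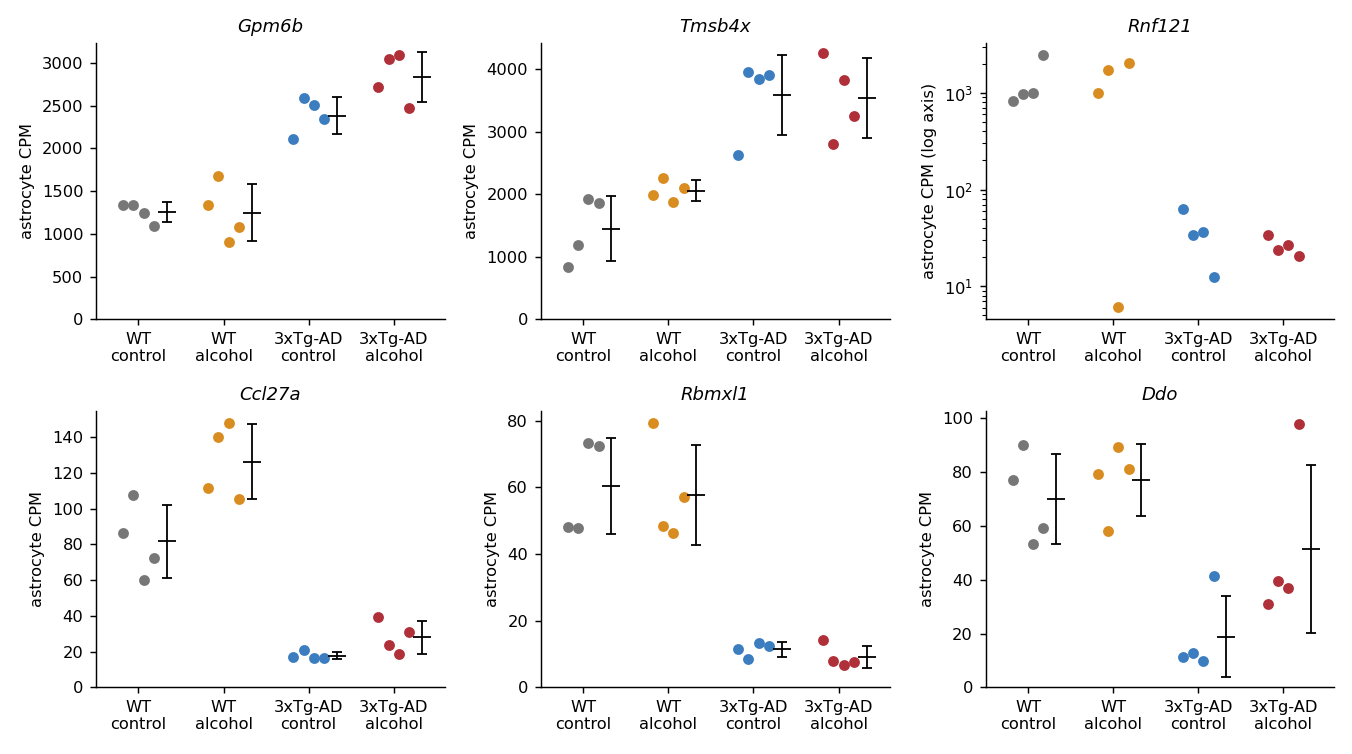
TMM-scaled CPM in astrocytes of genes that differed by genotype, with dots for mice and bars for the mean ± SD of 4 mice, and a log axis without a mean for Rnf121. For Gpm6b the 8 3xTg-AD mice (2105 to 3093 CPM) lie above the 8 WT mice, and for Rnf121 WT mouse 17 lies at 6.17 CPM.

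The genotype difference was set against that of all other nuclei of the same mice, with the mouse as a block in edgeR. In 8 genes the change was more positive in astrocytes and in 1 more negative (0.116% and 0.0145%, 0.13% of the genes tested in all). The largest of the positive ones was Galnt1, a glycosyltransferase gene. In the other nuclei it fell by 2.08 ± 0.16, from 76 to 197 unscaled CPM in WT mice to 23 to 30 in 3xTg-AD mice. In astrocytes it was at 65.8 to 120.4 CPM in WT mice and 56.5 to 92.8 CPM in 3xTg-AD mice, a value of -0.36, and the difference between both was 1.72 ± 0.18 (edgeR adjusted p = 2.95e-14). Ddo went the other way, at -1.25 in astrocytes and 0.47 in the other nuclei, a difference of -1.80. Abhd14b (1.04), Kcnk2 (0.95), Bet1 (1.20), Hmgn3 (0.50), Slc44a2 (1.57), Ccnd2 (0.46) and Pxdn (0.97) were the other 7, given as the difference between both changes. Bet1 was at -0.73 in astrocytes and -1.93 in the other nuclei, Ccnd2 at 0.24 and -0.25, and Pxdn at 0.15 and -0.75. In astrocytes, Abhd14b was at 0.82, Kcnk2 at 0.81, Hmgn3 at 0.78 and Slc44a2 at 1.56. A second reference, named other glia and vessel nuclei here, held 12448 nuclei. These had at least 1 UMI of Csf1r, P2ry12, Mag, Mog, Pdgfra and Flt1 together and under 3 UMIs of the astrocyte markers. Neuronal UMIs were not limited, so neurons can be among them. The calls of Bet1, Ccnd2 and Pxdn were lost with other glia and vessel nuclei as the reference (0.71, 0.46 and 0.79), and those of Slc44a2, Ccnd2 and Pxdn without the 3 mice with high Gm42418 (1.45, 0.42 and 0.90). For alcohol 1 gene differed (0.0145%), the synaptic scaffold gene Homer1, at 0.13 in astrocytes and -0.56 in the other nuclei, a difference of 0.67 that passed in neither of these alternatives (0.64 and 0.60). Between 3xTg-AD alcohol mice and WT controls 4 genes differed (0.0579%), all more positive in astrocytes, Galnt1 (1.92), Ccnd2 (0.77), Slc44a2 (2.43) and Bet1 (1.34), of which Bet1 was lost with the other reference (0.89) and Ccnd2 and Slc44a2 without the 3 mice (0.70 and 1.95). Galnt1, Ccnd2 and Bet1 were not called in astrocytes (-0.10, 0.05 and -0.88) and had -2.02, -0.75 and -2.22 in the other nuclei. Slc44a2 was at 2.31 in astrocytes and 0.003 in the other nuclei. Gpm6b, Tmsb4x, Ccl27a and Rnf121 changed in the other nuclei as well, by 0.90, 0.99, -1.56 and -4.74, and their difference from astrocytes did not pass.

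Over both genotypes, 15 genes differed with alcohol. Gpr37l1, a receptor of astrocytes for prosaposin-like peptides, was at 235, 209.7, 234 and 214 CPM in WT controls and 323, 338, 333 and 349 CPM in WT alcohol mice. In 3xTg-AD controls it was at 257, 201, 289 and 174 CPM, and in 3xTg-AD alcohol mice at 297, 328, 341 and 438 CPM. All 8 exposed mice were above all 8 controls, and Gpr37l1 rose by 0.60 ± 0.13 (edgeR adjusted p = 0.0204). Phyhip, a partner of the phytanoyl-CoA hydroxylase, was at 17.2 to 40 CPM in controls and at 40.3 to 82.2 CPM in exposed mice and rose by 1.0 ± 0.23 (edgeR adjusted p = 0.0263). Phka1, a regulatory subunit of the kinase that starts glycogen breakdown, was at 129.7 to 292 CPM in controls and at 67.7 to 133 CPM in exposed mice, and fell by 0.83 ± 0.16 (edgeR adjusted p = 0.0155), with overlap at 3xTg-AD control mouse 14 and exposed mouse 4. The brain cytoplasmic RNA Bc1 was at 1377 to 3701 CPM in controls and at 941 to 1606 CPM in exposed mice, and fell by 0.87 ± 0.16 (edgeR adjusted p = 0.0204). Parg, which removes poly(ADP-ribose), fell by 0.92 ± 0.20 (edgeR adjusted p = 0.0204), and Myl12b, a myosin light chain, rose by 0.69 ± 0.16 (edgeR adjusted p = 0.0263). The kinesin gene Kif21b fell by 0.87 ± 0.21 (edgeR adjusted p = 0.041) and the RNA polymerase subunit gene Polr2l rose by 1.30 ± 0.32 (edgeR adjusted p = 0.0442). The calls of Kif21b and Polr2l were lost in 13 and 11 of the 16 fits that left out a mouse, those of Myl12b in 9, Phyhip in 8, Gpr37l1 in 4, Parg in 3 and Bc1 in 1. Without the 3 mice with high Gm42418, all of which were controls, and likewise with the ribosomal RNA covariate, 2 of the 15 genes stayed called, and they had predicted-gene names. Gpr37l1 was then at 0.62 (edgeR adjusted p = 0.0512) without these mice and 0.65 (edgeR adjusted p = 0.11) with the covariate.

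Most lists of astrocyte functions held no called gene for the genotype or for alcohol. With 0.377% and 0.217% of all genes called, lists of this size would hold none or few at the same rate, so these counts show nothing particular to them. Of 24 identity genes tested outside the rule none was called, with a median log2 fold change of 0.05 for the genotype and 0.08 for alcohol. The same held for 18 genes of glutamate and GABA uptake (0.02 and 0.08), 17 of potassium and water handling (-0.07 and 0.18), and 29 of lipoproteins and cholesterol (-0.06 and 0.16). It held for 12 reactive astrocyte genes (0.01 and 0.28), 18 metallothioneins and redox genes (0.00 and 0.16), 38 of calcium signaling (-0.07 and -0.06) and 42 of synapse regulation and adhesion (-0.01 in both). None was called of 25 genes of glycogen, glycolysis and lactate (0.04 and 0.17), a list that does not hold the called gene Phka1, 12 of ethanol and aldehyde metabolism (-0.01 in both), 14 glucocorticoid-responsive genes (-0.09 and -0.20) or 15 clock genes (-0.03 and -0.02). The 35 transcription factors (0.08 and 0.09) and 20 genes at Alzheimer's disease loci (-0.07 and 0.05) had none either. Of 5 complement genes C4b was called for alcohol.

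Single genes of these lists are given with their error. Gfap was at 340.3 ± 184 CPM in WT controls, 374 ± 139 in WT alcohol mice, 243 ± 68.5 in 3xTg-AD controls and 382 ± 96.7 in 3xTg-AD alcohol mice, and its log2 fold change was 0.37 ± 0.25 for alcohol (edgeR adjusted p = 0.696) and -0.21 ± 0.26 for the genotype (edgeR adjusted p = 0.929). Slc1a2 differed by 0.05 ± 0.12 for alcohol (edgeR adjusted p = 0.946). Mt3, a metallothionein, had 0.46 ± 0.12 for alcohol (edgeR adjusted p = 0.0661), and Apoe 0.45 ± 0.16 (edgeR adjusted p = 0.308). Mt1 was at 714 to 1126 CPM in WT controls and 1079.8 to 1655 CPM in 3xTg-AD alcohol mice, a value of 0.54 ± 0.17 (edgeR adjusted p = 0.169). Of the ethanol genes, Acss2, which activates acetate, was at 146 unscaled CPM in astrocytes and 58.7 in the other nuclei, the aldehyde dehydrogenase gene Aldh2 at 84.0 and 29.4, and Adh5 at 47.1 and 30.6. Aldh1a1 was at 10.8 and 2.66, a level like that of microglial Cx3cr1 in the astrocytes, and Cyp2e1 had no UMI in astrocytes. Acss2 had a value of -0.20 ± 0.17 and Aldh2 one of 0.30 ± 0.17 for alcohol, and neither passed (edgeR adjusted p = 0.746 and 0.591). Of 11 genes that the study named in astrocytes, 8 passed the filter. C4b and Ifitm3 were called in 3xTg-AD alcohol mice against WT controls, where 0.434% of all genes were called. Ifitm3 passed the filter only with the 3xTg-AD alcohol mice. Because the study chose the genes it named on these samples, they are not independent evidence.

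Within the astrocytes, nuclei with and without Gfap were compared. A Gfap UMI was found in 541 of 3504 astrocytes (15.4%), in 15 to 67 per mouse, against 2.06% of the other nuclei. Median depth was 1687 UMIs with and 1279 without a Gfap UMI. The split was made on Gfap, which is therefore no finding, and the 6 genes of the rule are left out. Sums of both classes per mouse were compared with the mouse as a block in 4721 genes, and 596 were higher (12.6%) and 497 lower (10.5%) in the Gfap-positive astrocytes (23.2% called). With astrocytes thinned to 1000 UMIs and the 737 shallower ones left out, 373 of 1499 genes tested were called. Of 593 called genes tested in both, 589 kept their direction and 344 were called again, all with the same sign.

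Levels of this comparison are CPM scaled by the TMM factors of its own fit. Of the genes named here, chosen after their values were seen, Id3, an inhibitor of basic helix-loop-helix transcription factors, was at 1803 CPM in Gfap-positive and 407 in Gfap-negative astrocytes (log2 fold change 2.19), and Id1 was higher by 2.65. Myoc was at 878 ± 701 and 23.6 CPM (5.22), Vim, an intermediate filament protein, at 329.5 and 43.2 CPM (2.88), and C4b at 517 and 67.5 CPM (2.91). The semaphorin receptor gene Nrp2 (3.425), the growth factor-binding protein Igfbp5 (2.43) and the glutamine transporter Slc38a1 (2.36) were higher as well. Apoe was at 17512 and 6682 CPM (1.31), Sparcl1, a secreted matrix protein that acts on synapses, at 3113 and 1118 CPM (1.46), and Glul at 2061 and 887 CPM (1.23). Slc1a2 was at 11264.5 and 6031 CPM (0.89). All had an edgeR adjusted p within the threshold.

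Lower with Gfap were Gria2, an AMPA receptor subunit, at 1578 and 3973 CPM (-1.36), Glyctk (-2.25), the thyroid hormone transporter gene Slco1c1 (-1.17), Grin2c (-0.97), Mfge8 (-0.86), Dclk1 (-0.60) and Ntm (-0.51). Acss2 was lower by 0.73 on the log2 scale. Slc1a3 thus went opposite to Slc1a2, at -0.18 (edgeR adjusted p = 0.0417). By list, to be read against 12.6% higher and 10.5% lower over all genes tested, 9 of 9 reactive genes tested were higher (median 1.91), 10 of 14 of potassium and water handling (1 lower, median 0.66), 15 of 23 of lipoproteins and cholesterol (1 lower, 0.43) and 9 of 15 metallothioneins and redox genes (none lower, 0.52). Interferon-stimulated genes had 4 of 7 higher (median 0.89). Of 38 synapse and adhesion genes 6 were higher and 14 lower (-0.29), and of 33 calcium signaling genes 2 were higher and 8 lower (-0.11), where 23.2% of all genes were called in either direction.

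The neuronal mRNA of both classes was compared too. The 11 excitatory neuron markers summed to 5350 ± 1129 unscaled CPM in Gfap-positive and 5430 ± 717 in Gfap-negative astrocytes (SD, n = 16), and the Gfap-positive value was the higher one in 8 of 16 mice. Single neuronal genes moved both ways, with Camk2a higher by 0.80 and Snap25 lower by 0.28 on the log2 scale. The share of Gfap-positive astrocytes was 18.8% ± 1.19 in 3xTg-AD alcohol mice, 12.8% ± 2.71 in 3xTg-AD controls, 14.8% ± 6.1 in WT alcohol mice and 13.8% ± 3.98 in WT controls (SD, n = 4). Thinned to 1000 UMIs, it was 14.6% with and 11.6% without alcohol (two-sided exact permutation p = 0.225, adjusted p = 0.342 over 10 tests).

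**Figure D5:**
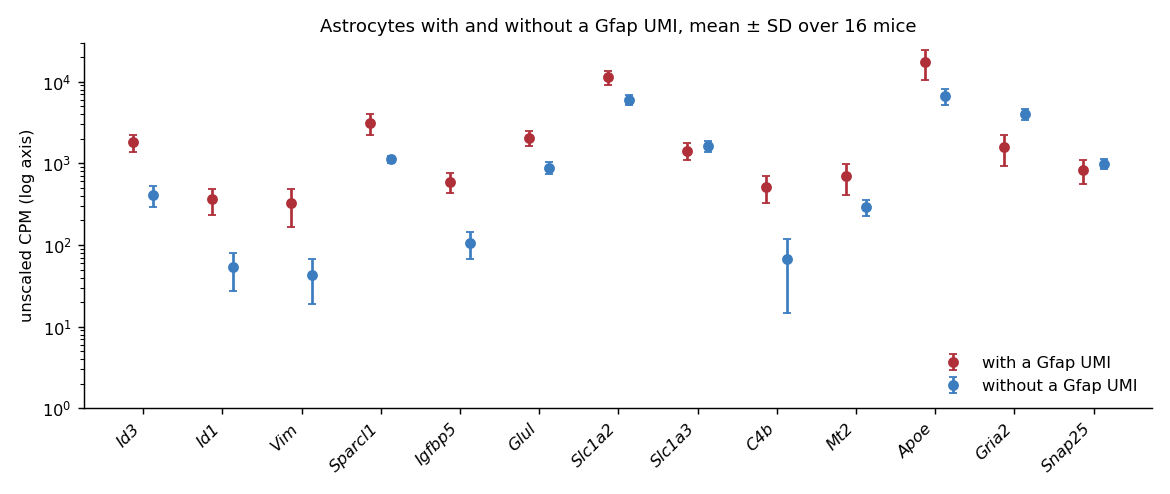
TMM-scaled CPM (the axis title reads unscaled) in astrocytes with and without a Gfap UMI for genes named in the text. The axis is a log axis, and values are mean ± SD over 16 mice. Id3 lies at 1803 against 407 CPM and Gria2 at 1578 against 3973 CPM.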

How the data were processed

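Single nuclei of the medial prefrontal cortex of 16 male mice were measured by 10x Genomics 3' RNA-Seq. Per the submitters' processing notes, reads were aligned to mm10 with Cell Ranger 6.1.1 (STAR). The authors deposited raw UMI counts of 19999 genes in 114512 nuclei, without normalization, and their cell assignments were not used here. The filter the authors used on nuclei is not given in the sources used here, and no nucleus was removed beyond the astrocyte rule. No doublet caller was run, and the exclusion of neuronal and other markers removes part of the doublets. Total counts per mouse ranged from 9622031 to 17544364. No column of another sample was left unused (0 columns).

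The astrocyte rule, the gene lists and the tests were chosen with earlier results of these data known. Counts of the astrocytes were summed per mouse and tested with edgeR 4.0.16 (limma 3.58.1, R 4.3.3) with TMM factors, filterByExpr and a robust quasi-likelihood fit with 1 mean per group over all 16 mice. Other nuclei of the same mice, and astrocytes with and without a Gfap UMI, were compared with the mouse as a block. The Benjamini-Hochberg adjustment was over all genes of a comparison, at 0.05. Shares were compared by exact permutation tests in scipy 1.17.1 (Python 3.11.15). Alternatives were DESeq2 1.42.0 (the test the authors used), RLE factors, no filter on low counts, the groups compared alone, the ribosomal RNA share as a covariate, a stricter rule, other depths, and each mouse left out. Scripts were tested on simulated data. The labels do not say whether mice of a group shared a litter, cage or chamber. The p-values measure the spread between these mice and take the mice as independent, which was not tested.

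Genes were named by rule. They were the 10 called genes with the smallest p in each direction, leaving out the genes of the astrocyte rule and names such as Gm with a number or ending in Rik. Called members of a list, the 2 most abundant members of each list and genes the study named in astrocytes were added, and further genes in the identity check and the Gfap comparison were chosen after their values were seen. Gene coordinates are those of the GENCODE annotation of mm10, which matched 6848 of 6905 genes. Some genes of the lists are counted but their values are not reported here.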

Additional observations from a re-analysis of the deposited data

Results flagged for a closer look

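Levels of 56 genes and shares were examined for a mouse far from the other 3 of its group, in 224 groups, and 16 stood apart, where about 1 group in 20 does so by chance. Values are TMM-scaled CPM in astrocytes. In 3xTg-AD control mouse 12, 1 of the 3 mice with high Gm42418, Alas1 was at 45.8 (others 16.8 to 20.7), Frmpd4 at 28.6 (39.9 to 42.0), Gas5 at 183 (376 to 407), Lars2 at 2460 (436 to 661) and Tmsb4x at 2620 (3830 to 3950). In 3xTg-AD mouse 34, exposed to alcohol, Bc1 was at 941 (1200 to 1250), Ddo at 97.9 (31.1 to 39.3) and Rnf213 at 64.4 (35.2 to 39.6). In WT mouse 7, exposed to alcohol, H2-D1 was at 67.7 (20.6 to 24.1) and Ifitm3 at 24.2 (3.01 to 6.17).

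Single values stood apart in other mice. Bcat2 was at 46.7 in WT control mouse 28 (24.0 to 26.3) and Rnf121 at 2450 in WT control mouse 36 (827 to 1000). Ccl27a was at 21 in 3xTg-AD control mouse 13 (16.5 to 17.2), Polr2l at 33.3 in mouse 14 (4.13 to 8.39) and Ddo at 41.3 in mouse 21 (9.98 to 12.6). Rbmxl1 was at 14.2 in 3xTg-AD mouse 4, exposed to alcohol (6.71 to 7.87).

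Astrocytes differed from the other nuclei in a change between groups, by the edgeR test of the difference (log2 scale, astrocytes minus other nuclei). For the genotype these were Galnt1 (1.72), Ddo (-1.80), Abhd14b (1.04), Kcnk2 (0.95), Bet1 (1.20), Hmgn3 (0.50), Slc44a2 (1.57), Ccnd2 (0.46) and Pxdn (0.97). For alcohol it was Homer1 (0.67). For 3xTg-AD alcohol mice against WT controls they were Galnt1 (1.92), Ccnd2 (0.77), Slc44a2 (2.43) and Bet1 (1.34).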

How the results depend on the processing

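Counts of called genes moved with several settings, and the cause was not tested. For 3xTg-AD alcohol mice against WT controls, 30 (with Atp13a4 of the rule) became 69 without the filter on low counts, 10 with the ribosomal RNA covariate, 11 without the 3 mice with the highest Gm42418, 9 under the stricter rule (at least 5 UMIs and 3 genes, 668 nuclei, with 1068 genes left to test) and 14 in nuclei without a Gfap UMI. For 3xTg-AD controls against WT controls, 7 became 11, 4 with the covariate and 2 under the stricter rule. Against 3xTg-AD controls, 1 became 0 with DESeq2, 13 without the filter, 2 with the groups compared alone, 13 with the covariate, 10 without the 3 mice, 2 under the stricter rule, 6 without the top 5% of UMIs and 0 without Gfap. Against WT alcohol mice, 19 became 11 with DESeq2, 50 without the filter, 2 under the stricter rule, 11 without the top 5% and 9 without Gfap. The genotype had 62 without the filter and 5 under the stricter rule, where 26 stood. Of the called genes outside the rule that could be tested under the stricter rule, 8 of 10 stayed called against WT controls, 2 of 5 against WT alcohol mice and 5 of 8 for the genotype. Alcohol had 6 with the covariate, 6 without the 3 mice, 7 under the stricter rule, 9 without the fibroblast-gene nuclei and 2 without Gfap, where 15 stood. The last 2 settings were chosen after seeing the data. Against other nuclei, alcohol had 0 genes with other glia and vessels as the reference and 0 without the 3 mice, and 3xTg-AD alcohol mice had 2 without them. The Gfap split had 373 calls when thinned and 1488 without the filter.

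Leaving out each mouse gave 18 to 33 calls for 3xTg-AD alcohol mice against WT controls (fewest without WT control 26 or 27 or exposed 3xTg-AD mouse 33), 4 to 9 for 3xTg-AD controls against WT controls, 0 to 0 for WT mice, 0 to 8 against 3xTg-AD controls, 8 to 21 against WT alcohol mice, 23 to 35 for the genotype, 3 to 30 for alcohol and 0 to 1 for the interaction. C4b against 3xTg-AD controls was between 1.07 and 1.41 without a mouse, and lost its call without 3xTg-AD control 13 or 14 or exposed mouse 33. With DESeq2 it was 1.25 (adjusted p = 0.140), and under the stricter rule 1.03 (edgeR adjusted p = 0.522). Under the stricter rule the share of astrocytes turned to -0.034 for 3xTg-AD controls and -0.0144 for exposed WT mice against WT controls, in percentage points. C4b-positive astrocytes at 1500 UMIs differed by 10.52 percentage points with alcohol and passed (exact permutation adjusted p = 0.0373). Atg16l2 lay between -0.264 and 0.0387 with a mouse left out and turned above 0 without WT control 36, and Cdk8 (0.0825) and Lars2 (0.27) turned above 0 with the covariate, in 3xTg-AD alcohol mice against WT controls. None of these 3 had been called. With that covariate 48 of the named values lost their call.

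No paired analysis was possible because every mouse has its own number and the groups share none. Small changes in genes under the filter would not show at 130 to 379 astrocytes per mouse.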

Other observations

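The genotype change was also set against the other glia and vessel nuclei, which can include neurons, in place of all other nuclei. It was more positive in astrocytes for Slc1a3 (0.63, log2 scale) and the cadherin Cdh2 (0.59) and more negative for C4b (-1.21, edgeR adjusted p = 0.0416). In the astrocytes with a Gfap UMI, where 12.6% of all genes tested were higher and 10.5% lower, 13 of 28 transcription factors tested were higher and 5 lower (median log2 fold change 0.29), and 6 of 22 genes of glycogen, glycolysis and lactate were higher and none lower (0.11). Of 3 complement genes tested, C4b and C1qb were higher. The potassium channel gene Kcnj10 was higher by 1.07, the glycolytic gene Aldoc by 1.04 and the lipid carrier gene Clu by 1.02, while Gjb6 was lower by 0.47 on the log2 scale.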
